A study of Mus musculus with 9 samples.

Results

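Cyclins and the inhibitors of cyclin-dependent kinases (CDKs) were followed in MC3T3-E1 cells during osteogenic differentiation and after knockdown of Runx2, a transcription factor required for osteoblast formation. The set held 10 genes, taken by symbol: the D cyclins Ccnd1, Ccnd2 and Ccnd3, the E cyclins Ccne1 and Ccne2, the cyclins Ccna2 and Ccnb2, and the inhibitors Cdkn1a, Cdkn1b and Cdkn2c. Of these, 9 had a probe set that carried 1 gene symbol, out of 19937 genes tested. The only probe set of Cdkn1a also carried 4930567H12Rik, so no value is given for Cdkn1a. Cdkn1b had 2 probe sets, of which the one with the higher mean over all arrays was used.

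MC3T3-E1 (subclone 4) is a single clonal line of mouse preosteoblasts from calvaria, and every culture carried a lentivirus that also encodes green fluorescent protein, by which infected cells were sorted. The shRunx2 day 9 group carried 1 short hairpin RNA (shRNA) against Runx2, the Scr day 9 group a scramble shRNA, and both had been differentiated for 9 days with ascorbic acid and beta-glycerophosphate after reaching near confluency. The Scr day 0 group carried the scramble shRNA and had not been differentiated. No day 9 culture without ascorbic acid and beta-glycerophosphate was analysed. Differentiation therefore cannot be told apart from 9 days in culture or from a change in cell density. Changes during differentiation, as named below, are those of Scr day 9 against Scr day 0. Each group had 3 biological replicates, each on 1 Affymetrix Mouse Gene 1.0 ST array. No shRunx2 array of day 0 was analysed, so an effect of the hairpin before differentiation cannot be told apart from one that arose during it. The level of Runx2 is not analysed here, which leaves the knockdown unchecked on these arrays. With 1 hairpin, loss of Runx2 cannot be told apart from any other effect of that hairpin.

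Cyclins are the regulatory subunits of the CDKs, and their levels set when a cell passes from one stage of its cycle to the next. D cyclins act with Cdk4 and Cdk6 in early G1, where they begin the phosphorylation of the retinoblastoma protein, and E cyclins act with Cdk2 at the entry into S phase. Cyclin A2 acts through S phase and G2 and cyclin B2 with Cdk1 in mitosis, so their messages are most abundant in cells that are dividing. Cdkn1a (p21) and Cdkn1b (p27) bind cyclin-CDK complexes, whereas Cdkn2c (p18) binds Cdk4 and Cdk6 and keeps D cyclins off them. In osteoblasts the cell cycle is usually left as the cells begin to mature.

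Promoter sequences are shown for 3 genes, Ccnb2, Ccne1 and Cdkn2c, because Ccnb2 had the largest change among the 9 genes after knockdown and Ccne1 and Cdkn2c had the largest changes during differentiation, in opposite directions. Each runs 5′ to 3′ from 250 bases before to 50 bases after the transcription start in RefSeq, build GRCm38.p6, and capitals mark matches to the motifs described after them. The windows are chr9:70421505-70421804 for Ccnb2, chr7:38107441-38107740 for Ccne1 and chr4:109666707-109667006 for the upstream start of Cdkn2c, all on the minus strand.
Ccnb2: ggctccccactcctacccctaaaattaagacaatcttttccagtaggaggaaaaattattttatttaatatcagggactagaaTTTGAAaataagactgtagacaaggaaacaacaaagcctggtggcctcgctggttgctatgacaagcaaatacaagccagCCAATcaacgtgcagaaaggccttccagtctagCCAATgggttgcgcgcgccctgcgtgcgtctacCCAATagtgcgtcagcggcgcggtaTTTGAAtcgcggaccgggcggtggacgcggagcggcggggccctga
Ccne1: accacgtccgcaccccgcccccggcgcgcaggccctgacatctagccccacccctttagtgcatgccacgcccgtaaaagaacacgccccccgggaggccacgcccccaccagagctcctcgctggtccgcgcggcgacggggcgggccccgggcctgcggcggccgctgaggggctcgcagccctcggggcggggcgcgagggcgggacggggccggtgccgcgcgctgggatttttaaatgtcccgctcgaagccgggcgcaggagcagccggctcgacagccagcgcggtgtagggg
Cdkn2c: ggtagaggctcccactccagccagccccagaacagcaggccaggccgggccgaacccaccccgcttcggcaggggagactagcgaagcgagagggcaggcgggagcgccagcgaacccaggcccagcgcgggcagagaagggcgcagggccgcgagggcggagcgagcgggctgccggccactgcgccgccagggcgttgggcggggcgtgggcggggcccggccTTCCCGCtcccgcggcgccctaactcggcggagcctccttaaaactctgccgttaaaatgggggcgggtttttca

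The promoter table matched 6 of the 10 genes, Ccnd3, Ccne1, Ccnb2, Cdkn1a, Cdkn1b and Cdkn2c, with 9 windows in all. Both strands were searched for TGTGGT, the core of the Runx motif, for TTTGAA, the cell cycle genes homology region (CHR), for CCAAT, and for TTGGCGC and TTCCCGC, E2F motifs without their first letter. TTGGCGC can overlap the reverse of CCAAT, which is ATTGG. The Ccnb2 window held CCAAT starting 87, 54 and 21 bases before the start, with 33 bases from each to the next, and TTTGAA 167 bases before the start and at base 5 of the transcript. The Cdkn1b window also held CCAAT 3 times, 161 and 35 bases before the start and, on the opposite strand, at base 46 of the transcript, and the second windows of Ccnd3 and Cdkn2c held it once each. Among all 32851 windows, 37.4% held CCAAT at least once, 3.37% held it 3 or more times and 17.9% held TTTGAA. In Cdkn2c, TTCCCGC stood 25 bases before the upstream start, a motif found in 4.6% of windows, and none of the motifs was found in the Ccne1 window. The letter before the Cdkn2c match, c in the sequence above, was not part of the search. For E2F only TTGGCGC and TTCCCGC were searched, so their absence from the Ccne1 window says nothing about other forms. TTGGCGC, found in 2.45% of windows, was in none of the 9. TGTGGT was also in none of the 9 windows, against 16.8% of all windows, which says only that these letters are not within 300 bases around these starts.

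Expression values are RMA log2 values, so a difference of 1 is a doubling. Groups were compared with limma. Adjusted p values are Benjamini-Hochberg values over the 19937 genes, and only genes under 0.05 are called higher or lower. Levels of different genes were not compared, since probe sets differ in their response. Array medians were 8.416 to 8.448 in Scr day 0, 8.466 to 8.487 in Scr day 9 and 8.483 to 8.51 in shRunx2 day 9. The day 0 medians thus lay below those of both day 9 groups. Correlations within a group were at least 0.998, and those between shRunx2 day 9 and Scr day 9 arrays reached 0.997. With values so close, r over all genes says little about whether a single array stood apart. Every value of the 9 genes was at least 9.57, whereas the 95th percentile of 1027 olfactory receptor genes, not known to act in bone cells, lay between 8.11 and 8.25 on each array.

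After knockdown, Ccna2 and Ccnb2 were lower in shRunx2 than in Scr cells at day 9, and no cyclin or inhibitor was higher by the test. These 2 of 9 genes compare with 7.39% of all genes called in either direction, 4.66% lower and 2.73% higher. Neither change reached 1.5-fold, as 0.196% of all genes did downward and 0.396% upward. The other 7 genes did not pass, and the median log2 change of the 9 was 0.0049, against -0.0041 over all genes. During differentiation 8 of the 9 genes changed: Ccnd1, Ccnd2, Cdkn1b and Cdkn2c rose and Ccnd3, Ccne1, Ccna2 and Ccnb2 fell in Scr day 9 against Scr day 0, where 31.6% of all genes changed, 14.5% upward and 17.1% downward. The groups did not overlap for these 8 genes, as for 40.2% of all genes, and the median log2 change of the 9 was -0.046, against -0.016 over all genes. The values of each array are plotted by gene.

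**Figure D1:**
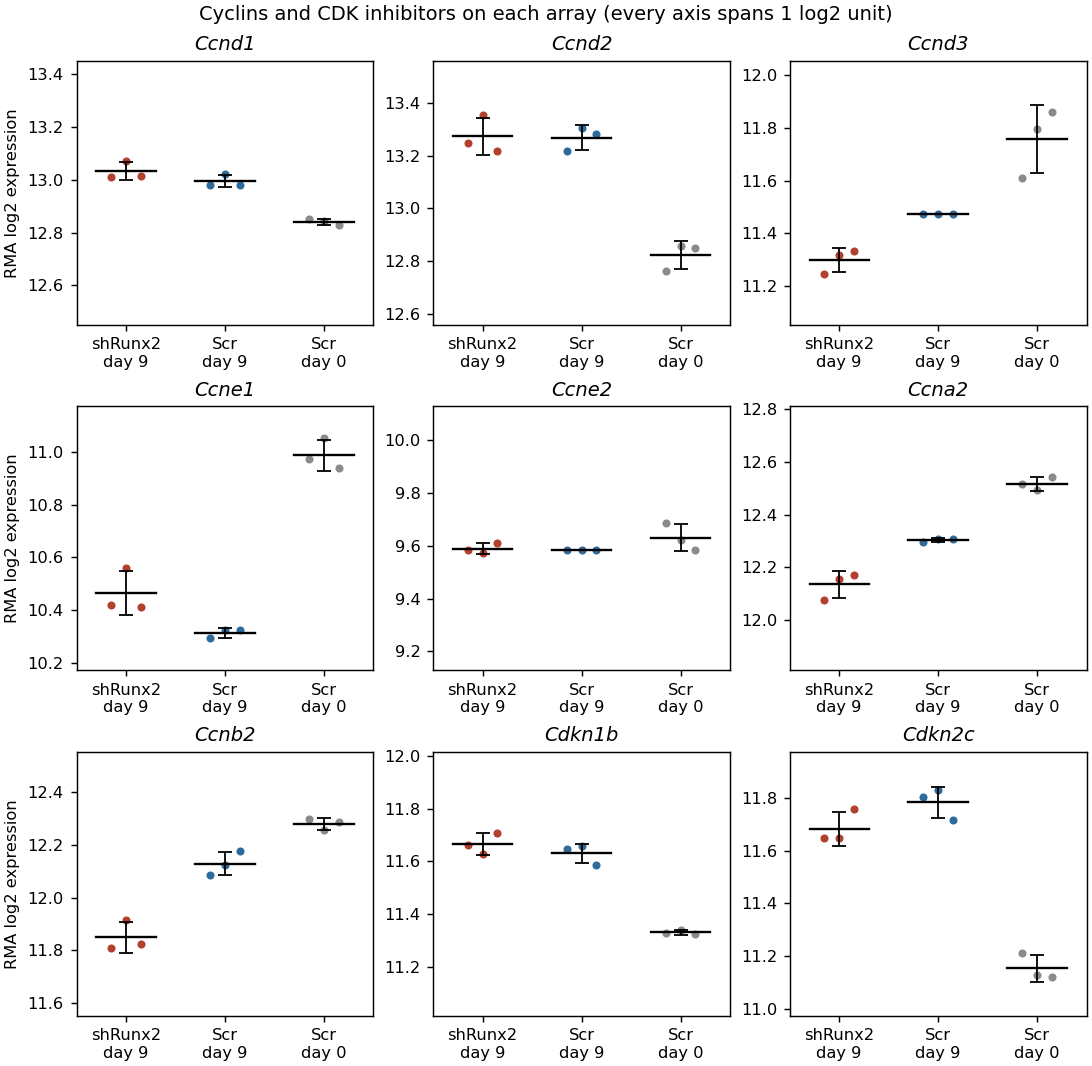
RMA log2 expression of the 9 measured genes on each array (points), with the group mean (long bar) and SD (error bar, n = 3), for shRunx2 day 9, Scr day 9 and Scr day 0; every axis spans 1 log2 unit. Ccna2 and Ccnb2 were lowest in shRunx2 day 9 and highest in Scr day 0, whereas Cdkn1b and Cdkn2c were at their lowest in Scr day 0.

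Among the D cyclins, Ccnd1 and Ccnd2 were higher and Ccnd3 lower on day 9. Ccnd2 had log2 values of 13.22, 13.30 and 13.28 in Scr day 9 arrays and 12.76, 12.86 and 12.85 in Scr day 0 arrays. All day 9 values lay above all day 0 values, and the log2 change was 0.44 ± 0.047 (SE, adjusted p = 1.83e-05), or 1.36-fold. In shRunx2 day 9 arrays Ccnd2 stood at 13.25, 13.35 and 13.22, overlapping Scr day 9, and the log2 difference between shRunx2 and Scr at day 9 was 0.0049 with a 95% interval of -0.098 to 0.11 (adjusted p = 0.971).

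Ccnd1, the D cyclin most often linked to mitogen signals, moved less. It had log2 values of 13.01, 13.07 and 13.02 in shRunx2 day 9 arrays, 12.98, 13.02 and 12.98 in Scr day 9 arrays, and 12.85, 12.84 and 12.83 in Scr day 0 arrays. Both day 9 groups lay above day 0, with log2 changes of 0.15 ± 0.035 for Scr (adjusted p = 0.00473) and 0.19 ± 0.035 for shRunx2 (adjusted p = 9.68e-04). The day 9 groups overlapped, and their log2 difference of 0.038 did not pass (adjusted p = 0.623). Ccnd1 had a small spread between replicates, with a pooled SD of 0.0253 that was smaller in only 4.45% of genes, and a change of 1.11-fold passed the test.

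Ccnd3 had the opposite course. Its log2 values were 11.25, 11.32 and 11.33 in shRunx2 day 9 arrays, 11.47 in all 3 Scr day 9 arrays, and 11.61, 11.80 and 11.86 in Scr day 0 arrays. The 3 groups did not overlap, and Ccnd3 fell by 0.28 ± 0.057 on the log2 scale in Scr day 9 against Scr day 0 (adjusted p = 0.00238) and by 0.46 ± 0.057 in shRunx2 day 9 against Scr day 0 (adjusted p = 6.01e-05). The log2 difference between shRunx2 and Scr at day 9, -0.18 ± 0.057, did not pass (adjusted p = 0.101). In that comparison 4 of the 9 genes had groups without overlap, as did 23.7% of all genes. Most of the spread in this fit came from Scr day 0, where the SD was 0.129, and without Scr day 0 replicate 1 the adjusted p was 0.0187. The 3 Scr day 9 values were identical as deposited, which was so within a group for 4.71% of all genes.

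An added constant on the log2 scale cancels in the difference between 2 genes of an array, although normalization that acts by intensity does not. Ccnd2 moved against Ccnd3 by 0.73 on the log2 scale in Scr day 9 against Scr day 0, and by a further 0.18 in shRunx2 day 9 against Scr day 9, without overlap between groups in either comparison. This pair was chosen after its values were seen, and no test was made.

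Ccne1 had the largest fall of the 9 genes during differentiation. Its log2 values were 10.42, 10.56 and 10.41 in shRunx2 day 9 arrays, 10.29, 10.33 and 10.32 in Scr day 9 arrays, and 10.97, 11.05 and 10.94 in Scr day 0 arrays. Ccne1 fell by 0.67 ± 0.048 on the log2 scale in Scr day 9 against Scr day 0 (adjusted p = 6.71e-07), a 1.59-fold difference larger than that of 96.0% of genes. In shRunx2 day 9 it fell by 0.52 ± 0.048 against Scr day 0 (adjusted p = 4.79e-06). All shRunx2 values lay above all Scr values at day 9, yet their log2 difference of 0.15 ± 0.048 did not pass (adjusted p = 0.0964). It passed, at an adjusted p of 0.0349, when the deposited values were quantile normalized again, with a log2 difference of 0.19, and at 0.0466 when only genes above the median level were tested.

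Ccne2, the other E cyclin, did not follow. Its log2 values were 9.58, 9.57 and 9.61 in shRunx2 day 9 arrays, 9.58 in all 3 Scr day 9 arrays, and 9.69, 9.62 and 9.58 in Scr day 0 arrays. The groups overlapped or touched in every comparison, and the log2 change during differentiation was -0.046, with a 95% interval of -0.13 to 0.034 (adjusted p = 0.410). Ccne2 was listed at 1 identical value on 5 of the 9 arrays. Identical values on 2 or more arrays were found for 49.6% of all genes, and their source was not tested. Against Ccne2 on the same array, Ccne1 moved by -0.63 on the log2 scale in Scr day 9 against Scr day 0, a pair again chosen after its values were seen.

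Ccnb2, a partner of Cdk1 in mitosis, had the largest knockdown difference of the 9 genes. Its log2 values were 11.81, 11.92 and 11.82 in shRunx2 day 9 arrays, 12.09, 12.12 and 12.18 in Scr day 9 arrays, and 12.30, 12.25 and 12.29 in Scr day 0 arrays. The groups did not overlap. Ccnb2 fell by 0.28 ± 0.041 on the log2 scale in shRunx2 day 9 against Scr day 9 (adjusted p = 0.00164), which is 1.21-fold and larger than the change of 97.0% of genes. In Scr day 9 against Scr day 0 it fell by 0.15 ± 0.041 (adjusted p = 0.0144), and in shRunx2 day 9 against Scr day 0 by 0.43 ± 0.041 (adjusted p = 7.11e-06). The 3 comparisons share arrays, so these values are not independent of each other. The knockdown call held under each of 18 other settings, with adjusted p values between 2.87e-04 and 0.0110.

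Ccna2, which acts in S phase and G2, showed the same order of groups. Its log2 values were 12.08, 12.16 and 12.17 in shRunx2 day 9 arrays, 12.30, 12.31 and 12.31 in Scr day 9 arrays, and 12.52, 12.49 and 12.54 in Scr day 0 arrays. No groups overlapped. Ccna2 fell by 0.17 ± 0.037 on the log2 scale in shRunx2 day 9 against Scr day 9 (adjusted p = 0.0183), by 0.21 ± 0.037 in Scr day 9 against Scr day 0 (adjusted p = 8.37e-04) and by 0.38 ± 0.037 in shRunx2 day 9 against Scr day 0 (adjusted p = 8.12e-06). The knockdown call was lost when any of 3 arrays was left out: the adjusted p was 0.0739 without Scr day 9 replicate 2, 0.0531 without Scr day 9 replicate 3 and 0.0746 without shRunx2 day 9 replicate 1. In bulk RNA, fewer dividing cells and less message in each cell cannot be told apart.

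Cdkn2c, the p18 inhibitor of Cdk4 and Cdk6, rose most of the 9 genes during differentiation. It had log2 values of 11.65, 11.65 and 11.76 in shRunx2 day 9 arrays, 11.80, 11.83 and 11.72 in Scr day 9 arrays, and 11.21, 11.13 and 11.12 in Scr day 0 arrays. Both day 9 groups lay above day 0, by 0.63 ± 0.047 on the log2 scale in Scr (1.55-fold, adjusted p = 1.06e-06) and by 0.53 ± 0.047 in shRunx2 (1.44-fold, adjusted p = 3.96e-06). The day 9 groups overlapped, and the log2 difference of shRunx2 from Scr was -0.099, with a 95% interval of -0.20 to 0.0043 (adjusted p = 0.28).

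Cdkn1b, which encodes p27, rose by about as much in both day 9 groups. Its log2 values were 11.66, 11.63 and 11.71 in shRunx2 day 9 arrays, 11.65, 11.66 and 11.59 in Scr day 9 arrays, and 11.33, 11.34 and 11.32 in Scr day 0 arrays. Both day 9 groups lay above day 0, with log2 changes of 0.34 ± 0.037 in shRunx2 (adjusted p = 2.11e-05) and 0.30 ± 0.037 in Scr (adjusted p = 5.90e-05). The log2 difference between shRunx2 and Scr at day 9 was 0.036, with a 95% interval of -0.045 to 0.12 (adjusted p = 0.671). The second Cdkn1b probe set gave log2 changes of 0.51 in Scr day 9 against Scr day 0 and -0.039 in shRunx2 day 9 against Scr day 9, so the probe sets had the same direction for differentiation and opposite signs for a knockdown difference that passed in neither.

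**Figure D2:**
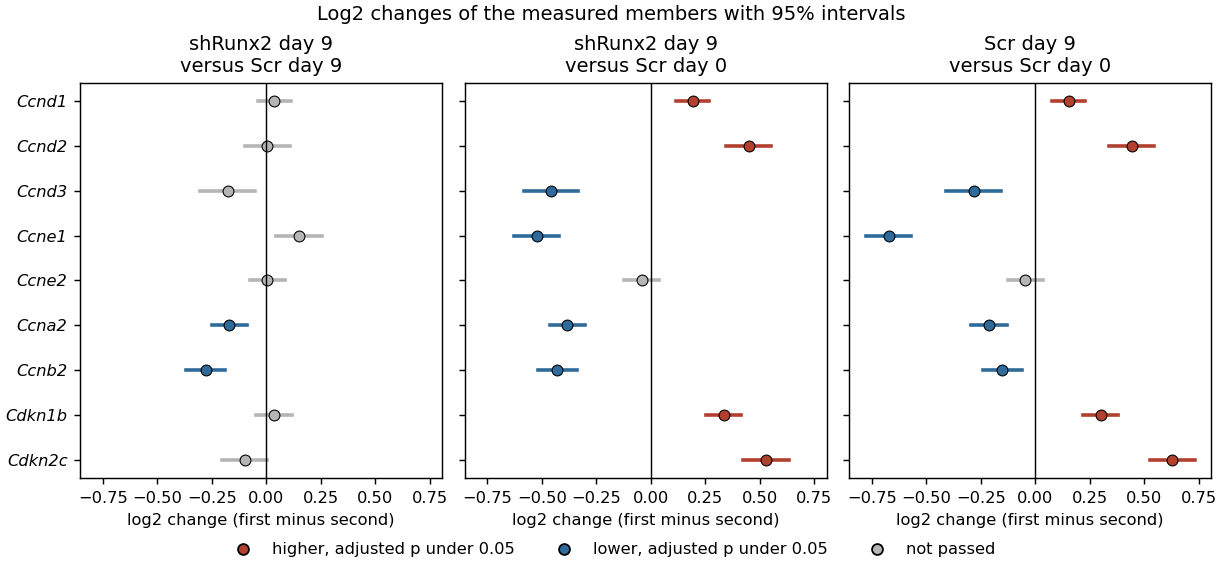
Log2 changes of the 9 measured genes (points) with 95% intervals from the limma model (lines, n = 3 arrays per group), for shRunx2 day 9 versus Scr day 9, shRunx2 day 9 versus Scr day 0 and Scr day 9 versus Scr day 0. After knockdown only the intervals of Ccnb2 and Ccna2 belong to changes that passed at an adjusted p under 0.05, while 8 of 9 genes passed in each comparison with day 0.

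Set against day 0, shRunx2 day 9 cells had the same 4 genes higher (Ccnd1, Ccnd2, Cdkn1b and Cdkn2c) and the same 4 lower (Ccnd3, Ccne1, Ccna2 and Ccnb2) as Scr day 9 cells, where 34.2% of all genes were called, 13.8% higher and 20.4% lower. The same 8 genes did not overlap between the groups, as 42.3% of all genes did not, and the median log2 change of the 9 was -0.041, against -0.0087 over all genes. Both comparisons use the Scr day 0 arrays. The genes at or past 1.5-fold were Cdkn2c and Ccne1 in Scr day 9, against 2.89% of all genes that rose and 2.25% that fell by as much, and none in shRunx2 day 9, where 2.91% rose and 2.79% fell by as much. Between the 2 day 9 groups themselves, Ccna2 and Ccnb2 passed and the other 7 did not. All 18 alternative settings gave the same calls for all 9 genes in both comparisons with day 0.

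The CDKs that these cyclins bind were on the same arrays. Cdk4, named here as a D cyclin partner after its values were seen, rose by 0.20 ± 0.035 on the log2 scale in Scr day 9 against Scr day 0 (adjusted p = 9.31e-04) and its log2 difference between shRunx2 and Scr at day 9 was -0.019 (adjusted p = 0.835). Cdk6, the other D cyclin partner, fell by 0.34 ± 0.047 in shRunx2 day 9 against Scr day 9 (adjusted p = 0.00104) and had a log2 change of -0.065 during differentiation (adjusted p = 0.354). Cdk2, the E and A cyclin partner, fell by 0.40 and Cdk1, the mitotic kinase, by 0.36 on the log2 scale in Scr day 9 against Scr day 0. Of 10 CDKs, 3 were lower in shRunx2 day 9 than in Scr day 9, with none higher, and during differentiation 4 rose and 5 fell, with median log2 changes of -0.062 and -0.12. Only Cdk6 of the 3 stayed lower under every setting: leaving out Scr day 0 replicate 2 or any single day 9 array left 1 CDK called.

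Of 14 other cyclins, 2 were lower and none higher in shRunx2 day 9 than in Scr day 9, with a median log2 change of -0.013: Ccng1, a p53 target, fell by 0.23 on the log2 scale (adjusted p = 0.00206), and Ccng2 by 0.28 (adjusted p = 0.0170). The Ccng2 call was lost without Scr day 9 replicate 1, shRunx2 day 9 replicate 1 or shRunx2 day 9 replicate 3, with adjusted p values up to 0.0777. During differentiation Ccnh, the cyclin of the CDK-activating kinase, rose by 0.31 and Ccnf, Ccnc and Ccny fell, Ccnf by 0.62 on the log2 scale, and the median was -0.055. Of the 3 other A and B cyclins listed, Ccna1 and Ccnb3 passed in no comparison and Ccnb1 is not analysed here.

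Of 5 further CDK inhibitors, none passed in Scr day 9 against Scr day 0 (median log2 change -0.067). In shRunx2 day 9 against Scr day 9 only Cdkn3, a phosphatase that acts on Cdk2, passed, and it fell by 0.21 on the log2 scale (adjusted p = 0.0313), a call lost without Scr day 0 replicate 2, any Scr day 9 array, or shRunx2 day 9 replicate 1 or 2, where the count was 0. The INK4 genes related to Cdkn2c, Cdkn2a, Cdkn2b and Cdkn2d, had log2 changes of -0.019, -0.022 and -0.15 during differentiation, none of which passed, beside the 0.63 of Cdkn2c.

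The retinoblastoma and E2F genes, which act downstream of the D and E cyclins, fell for the most part during differentiation. Of 17, 10 fell and 1 rose in Scr day 9 against Scr day 0, with a median log2 change of -0.30 against -0.016 over all genes. Rb1, which encodes the retinoblastoma protein, rose by 0.27 ± 0.048 (adjusted p = 9.02e-04), the 1 gene of the list to do so. E2f7, a repressor of the family, fell by 0.68, the mitotic regulators Mybl2 by 0.55 and Foxm1 by 0.52, and E2f6 by 0.51 on the log2 scale. In shRunx2 day 9 against Scr day 9, E2f5 fell by 0.22 (adjusted p = 0.0118), and the other 16 of the 17 did not pass (median log2 change -0.045).

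The regulators of CDK activity and of cyclin turnover also fell, with 13 of 19 lower and 2 higher in Scr day 9 against Scr day 0 and a median log2 change of -0.30. Gadd45b and Gadd45g, stress-induced genes whose products bind Cdk1 complexes, fell by 1.17 and 0.84 on the log2 scale, Cks1b, a CDK subunit, by 0.66, and Wee1, the kinase that restrains Cdk1, by 0.41. In shRunx2 day 9 against Scr day 9, Cdc25c and Cks2 fell by 0.29 and 0.18 and Gadd45b rose by 0.21 on the log2 scale, with a median of -0.091 over the 19. None of the 3 calls held in all settings: with single day 9 arrays left out, the number lower lay between 0 (without Scr day 9 replicate 2, Scr day 9 replicate 3 or shRunx2 day 9 replicate 1) and 3 (without shRunx2 day 9 replicate 2), and Gadd45b was lost without any Scr day 9 array or shRunx2 day 9 replicate 2 or 3.

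Proliferation markers moved for the most part in the direction of Ccna2 and Ccnb2, though after knockdown fewer passed than did not. Of 28, 10 were lower and none higher in shRunx2 day 9 than in Scr day 9, against 4.66% and 2.73% of all genes. The median log2 change was -0.16, against -0.0041 over all genes. The other 18 did not pass, among them Pcna, Tk1 and Rrm2, with log2 changes of -0.0066, 0.0047 and 0.020. The summary level of the list, the mean log2 value of its 28 genes, ranged from 10.73 to 10.82 in shRunx2 day 9 arrays, 10.93 to 10.95 in Scr day 9 arrays and 11.25 to 11.29 in Scr day 0 arrays. Cenpf and Cenpa, of the kinetochore and centromere, fell by 0.26 and 0.29 on the log2 scale, Racgap1, which acts in cytokinesis, by 0.28, and Rrm1, a subunit of ribonucleotide reductase, by 0.25, and these 4 calls held in every setting. The count itself was 5 without Scr day 9 replicate 2 and 6 without shRunx2 day 9 replicate 1, and it was also 6 with all probe sets tested and 16 with array weights. In Scr day 9 against Scr day 0, 24 of the 28 fell and 1 rose, with a median log2 change of -0.36: Aurka, a spindle kinase, fell by 0.65, the spindle factor Tpx2 by 0.51, and Mcm2, of the replicative helicase, and Racgap1 by 0.49 each. The part of the share of dividing cells in the Ccna2 and Ccnb2 values was not tested.

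**Figure D3:**
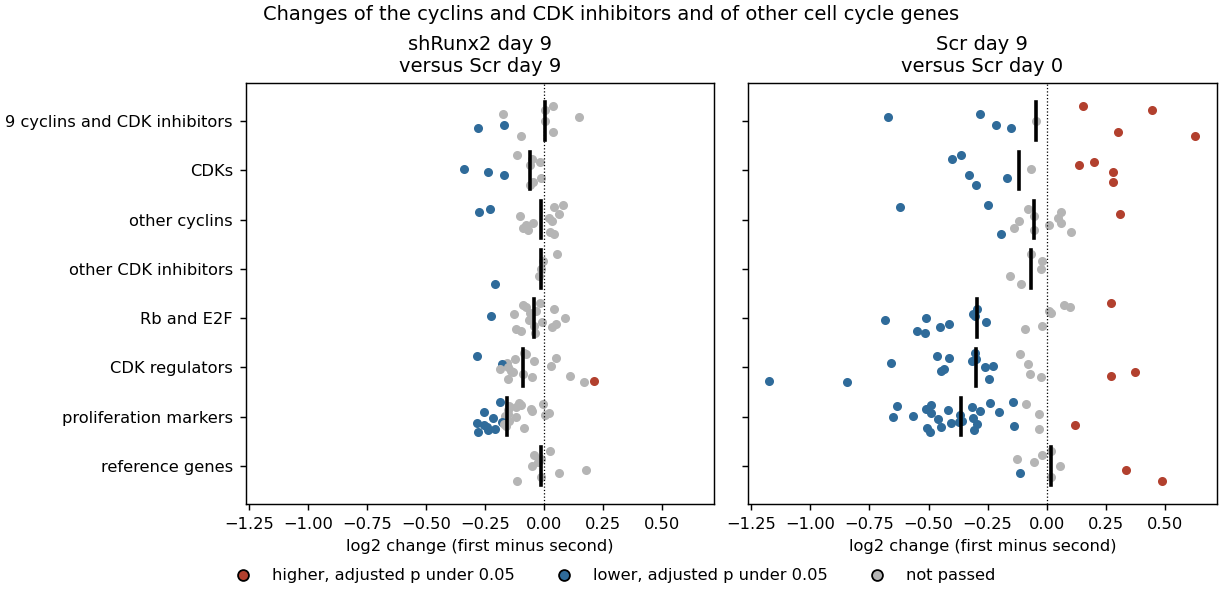
Log2 changes of single genes (points; colour gives the call at an adjusted p under 0.05) and the median (black bar) for the 9 measured cyclins and CDK inhibitors and for 7 lists of other genes, in shRunx2 day 9 versus Scr day 9 and Scr day 9 versus Scr day 0; the horizontal axis is the log2 change. Proliferation markers lie mostly below 0 in both comparisons, with medians of -0.16 and -0.36, while the medians of the reference genes are -0.014 and 0.017, with B2m and Gusb higher and Ywhaz lower in Scr day 9 versus Scr day 0.

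The p53 targets did not move one way. Of 17 measured, Sesn1 rose by 1.32 on the log2 scale in Scr day 9 against Scr day 0 (adjusted p = 2.11e-10) and fell by 0.59 in shRunx2 day 9 against Scr day 9 (adjusted p = 2.36e-06), the largest knockdown change among the cell cycle and p53 lists. In all, 4 rose and 6 fell during differentiation, and 3 were lower and none higher after knockdown, with median log2 changes of -0.081 and -0.056. After knockdown 4.66% of all genes were lower. The 3 were Sesn1, Ccng1, which is also counted among the other cyclins, and Eda2r (adjusted p = 0.0493). The Eda2r call was lost under 10 alternatives, among them when any single day 9 array was left out. Cdkn1a, the best known gene of this class, could not be read, as stated at the outset. Of 9 reference genes, none passed in shRunx2 day 9 against Scr day 9, although B2m did under 7 and Gusb under 1 of the alternatives, and B2m and Gusb rose during differentiation, by 0.34 and 0.49 on the log2 scale. Ywhaz fell by 0.11 during differentiation (adjusted p = 0.0211), a call lost without Scr day 0 replicate 2 or Scr day 9 replicate 2, with adjusted p values up to 0.0770.

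Osteoblast markers changed with the labels. Of 8 measured, Ibsp, Phex, Alpl and Sp7 rose in Scr day 9 against Scr day 0, Ibsp by 3.76 and Phex by 2.43 on the log2 scale, and the same 4 fell in shRunx2 day 9 against Scr day 9: Ibsp fell by 1.12 and Phex fell by 1.94. The other 4 did not pass in either comparison. The mean level of 11 macrophage and leukocyte genes lay between 8.02 and 8.06 in shRunx2 day 9, 7.98 and 8.004 in Scr day 9 and 7.88 and 7.92 in Scr day 0 arrays. Over all arrays it lay between 7.97 and 8.05 for 8 endothelial genes, 7.77 and 7.86 for 7 adipocyte genes, 8.19 and 8.41 for 7 skeletal muscle genes and 9.10 and 9.18 for 6 chondrocyte genes. The median of the olfactory receptor genes was 6.28 to 6.39, so these list means stood above it. Against the 95th percentile of the olfactory receptor genes, 8.11 to 8.25, the macrophage and leukocyte, endothelial and adipocyte means lay lower. A list mean and a percentile of single genes are unlike measures, and single markers lay on both sides of that range. In Scr day 9, Lyz2, Flt1 and Cebpa had means of 8.69, 10.41 and 9.45, but Ptprc, Kdr and Pparg 7.33, 7.47 and 7.83. The skeletal muscle means overlapped the same range, and the chondrocyte means lay above it. Among the chondrocyte genes, Sox9 stood at 12.14 and Matn3 at 7.44 in Scr day 9.

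Single markers moved within these lists. Lyz2 rose by 0.80 on the log2 scale in Scr day 9 against Scr day 0 and by 0.42 in shRunx2 day 9 against Scr day 9 (adjusted p = 0.0125), the second call lost without Scr day 9 replicate 2 or 3 or shRunx2 day 9 replicate 2 or 3. Fcer1g rose by 0.50 during differentiation and fell by 0.27 after knockdown, and Flt1, of endothelium, rose by 0.44 and fell by 0.22. Sox9, a chondrocyte factor, had mean log2 values of 12.34 in shRunx2 day 9, 12.14 in Scr day 9 and 12.12 in Scr day 0, and rose by 0.20 after knockdown (adjusted p = 0.00384). The cultures were of a single clonal line, and whether other cell types had a part in these values was not tested.

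Genes whose values over the 9 arrays lay closest to those of each cyclin or inhibitor were found by Pearson's r over all genes, as a description of 9 arrays that fall into 3 groups. Ccnb2 was followed most closely by Tnpo1 (r = 0.984) and Rbbp4 (r = 0.983), Ccna2 by Prkcsh and Unc5b (0.997 and 0.996), and Ccnd3 by Tubb5 and Cdca4 (0.989 and 0.984). Ccne1 was closest to Nmt1 and Ubash3b (0.997 and 0.994), and Cdkn2c to Pgghg and Hebp1 (0.998 and 0.997). Cdkn1b was closest to Ssc5d and Fzd9 (0.996 and 0.993), Ccnd1 to Fam169b and Foxn2 (0.993 and 0.991), Ccnd2 to Gm9805 and Fst (both 0.988), and Ccne2, which hardly varied, to Slc35d2 and Abraxas2 (0.965 and 0.943). Among the 9 genes themselves the strongest relation was an opposite one, between Ccne1 and Cdkn2c (r = -0.979), followed by Cdkn1b with Cdkn2c (0.965), Ccnd1 with Ccnd2 (0.964) and Ccna2 with Ccnb2 (0.955). The arrays behind every r are the same 9, in the same 3 groups.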

How the data were processed

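The values were deposited by the authors as log2 expression made by RMA, in which background is corrected, arrays are brought to 1 distribution and the probes of a set are summarized by median polish. The submitters' processing notes name RMA and limma. The methods also mention filtering without giving a rule. A genome build for the values is not given in the sources used here. The table held 34760 probe sets on 9 arrays. Of these, 21640 carried 1 gene symbol in the platform annotation, 1321 several and 11799 were unnamed here. Where a gene had several (954 genes), the probe set with the highest mean over the 9 arrays stood for it, which left 19937 genes. Precision is limited by the number of arrays.

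The limma package (3.58.1, under R 4.3.3) fitted 1 model of 3 group means to all 9 arrays with moderated variances, with Benjamini-Hochberg adjustment over all genes and a threshold of 0.05. No filter, covariate or further scaling was applied. The procedure was run on simulated data with independent normal noise. Those data lack the identical values between arrays found here, so the run does not bear on them. Alternatives left out each array, added the replicate number as a block, fitted only the 2 groups compared, centred arrays on their medians, repeated quantile normalization, weighted arrays, used an intensity trend, tested all probe sets or only genes above the median level, or averaged probe sets of a gene.

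The members, the gene lists and the choice of further genes to name were made with earlier results of these data known. Named genes were all members, up to 4 genes per list with the smallest adjusted p in each of shRunx2 day 9 against Scr day 9 and Scr day 9 against Scr day 0, and the 2 genes closest to each member. Cdk4, Cdk6 during differentiation, Rb1, the INK4 genes, Pcna, Tk1 and Rrm2 were named after their values were seen. So were the single markers set against the olfactory receptor range. Promoters and their coordinates came from RefSeq (GRCm38.p6). Listed genes without a probe set of 1 symbol are not analysed here.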

Additional observations from a re-analysis of the deposited data

How the results depend on the processing

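Each log2 change of the 9 genes in the 3 comparisons was recomputed under 18 alternatives. Of 486 values, 475 stayed on their side of the threshold, 4 no longer passed and 7 newly passed, and no change that passed turned its sign. Differences near 0 that did not pass in shRunx2 day 9 against Scr day 9 changed sign under 4 alternatives for Ccnd2 (log2 range -0.035 to 0.033), 2 for Ccne2 (-0.018 to 0.017) and 1 for Cdkn1b (-0.0018 to 0.060). The changes of call concerned Ccna2, Ccnd3 and Ccne1 in shRunx2 day 9 against Scr day 9. There, the count of members higher was 0 and became 1 with repeated quantile normalization and with genes above the median level, through Ccne1. The count lower was 2, lay between 1 and 3 when single arrays were left out, and was 1 with all probe sets tested, where Ccna2 had an adjusted p of 0.0511. Ccnd3 passed with only the arrays of the 2 groups (adjusted p = 0.0260), with median centring (0.0457), with array weights (0.0236) and with genes above the median level (0.0467). Its 3 Scr day 9 values were identical as deposited (SD 0), which lowers the spread, above all in the fit of the 2 groups. The part of these identical values in the calls was not tested. With the replicate number as a block, members lower remained at 2 and higher at 0, and over all genes 543 were higher and 907 lower, against 544 and 930 without it. The deviations of same-numbered arrays of shRunx2 day 9 and Scr day 9 had correlations of -0.037, 0.096 and -0.11. Those of Scr day 9 and Scr day 0 had 0.29, 0.082 and 0.29, against -0.29 to 0.11 for arrays of different numbers, and those of shRunx2 day 9 and Scr day 0 had -0.040, 0.13 and -0.037. In no comparison were all 3 above 0.1, and the fit without the block was kept. For Scr day 9 and Scr day 0, however, both values of 0.29 exceeded every value for different numbers. The choice of fit therefore does not settle whether those arrays were paired. Whether the replicate numbers mark pairs is not stated in the labels. In Scr day 9 against Scr day 0 the block gave 3009 higher and 3457 lower over all genes, against 2895 and 3413 without it. Over all genes, median centring gave 428 higher and 1175 lower in shRunx2 day 9 against Scr day 9, 2373 and 4602 (against 2895 and 3413) in Scr day 9 against Scr day 0, and 2021 and 6136 (against 2754 and 4063) in shRunx2 day 9 against Scr day 0. Array weights gave 917 and 1673 in the first of these. Without Scr day 9 replicate 2 the counts were 355 and 503, and without Scr day 9 replicate 1 and shRunx2 day 9 replicate 1 the counts lower were 562 and 507. The causes were not tested. With 3 arrays a group and a median SE of 0.048 over all genes, changes of the size of those of Ccnd3 and Ccne1 lie near the limit of the test.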
